A study of Oncorhynchus mykiss with 14 samples.

Results

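The muscle miRNAs miR-1, miR-133 and miR-206 were followed through 14 small RNA libraries made from mature adipocytes, which store fat as a lipid droplet, of adult rainbow trout (Oncorhynchus mykiss). They were taken by name: 7 of the 899 entries of the deposited count table carry Atlantic salmon names (prefix ssa) of this kind, all of them 3p arms. These are ssa-miR-1-3p, ssa-miR-1-3-3p, ssa-miR-1-4-3p, ssa-miR-133a-3p, ssa-miR-133a-3-3p, ssa-miR-133b-3p and ssa-miR-206-3p. The letters ssa-miR-133 also open the name of miR-1338-5p, which is another miRNA and was left out. The libraries came from visceral fat (VAT, 4 libraries, numbered 1, 3, 4 and 5), subcutaneous fat (SAT, 5 libraries) and intramuscular fat, which lies between the muscle fibres (IMAT, 5 libraries). All fish were adult, untreated controls, held for 1 month at 15 ± 1 °C under a cycle of 12 h light and 12 h dark, and fasted for 24 h before sampling. No strain, sex or genotype is stated in the labels. The labels leave unsaid whether the libraries of a depot came from separate fish; p-values therefore reflect only the spread among the libraries, part of which may be technical.

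A miRNA is a short RNA that guides the Argonaute protein to partly matching messenger RNAs and lowers their output. miR-1, miR-133 and miR-206 are known as the muscle miRNAs: their genes are switched on by MyoD, SRF and MEF2, the factors of muscle differentiation. In mammals, miR-1 and miR-133a are cut from shared primary transcripts in heart and skeletal muscle, and miR-206 and miR-133b from another shared transcript that is restricted to skeletal muscle. miR-1 and miR-206 have the same seed, the bases that pair with a target, while miR-133a and miR-133b share a different one. In mice, miR-1 promotes muscle differentiation by lowering the histone deacetylase HDAC4, miR-206 lowers Pax7 of muscle stem cells, and miR-133 lowers SRF. In mice miR-133 also lowers Prdm16, a regulator of brown fat.

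The 7 entries held 4 distinct sets of reads. miR-1-3-3p and miR-1-4-3p had equal counts in every library, and miR-1-3p held 1.76 to 7.4% more than these. The excess was 3.8 ± 0.912% in VAT (mean ± SD, n = 4), 2.15 ± 0.307% in SAT (n = 5) and 4.68 ± 2.13% in IMAT (n = 5), with the highest values in IMAT 5 (7.4%) and IMAT 4 (6.27%). The entries miR-133a-3p and miR-133a-3-3p differed by at most 2 reads in a library that held up to 71711. The 3 entries of miR-1 and the 2 of miR-133a were therefore read as 1 miRNA each, represented by miR-1-3p and miR-133a-3p. The mature lengths in the table are 22 nt for miR-1, miR-133a and miR-206 and 21 nt for miR-133b. Levels are given below in RPM, the reads per 1000000 miRNA reads of a library, with each set of entries that carry the same reads counted once. On that base the libraries held 407941 reads (IMAT 4) to 10813567 reads (VAT 5).

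One library stood apart from its depot. VAT 3 was the highest VAT library for all 4 miRNAs. Its miR-499 reads, the other muscle marker tested, were also the highest of VAT: miR-499a and miR-499b together held 141 reads per 1000000 non-muscle reads in VAT 3, where the VAT median was 53.4. For the muscle miRNAs, differences from VAT in level, share and edgeR fold change are given below with and without VAT 3. For list entries called against VAT, it is stated whether the call was kept without VAT 3, except for miR-204 and miR-27c. Markers of other cell types are summed here per 1000000 non-muscle reads. Those of stroma and smooth muscle held 24307 to 68083 in VAT, 85591 to 119409 in SAT and 65804 to 125956 in IMAT, and miR-126 of endothelium held 13351 to 45724, 58487 to 89981 and 19682 to 82819, with the highest VAT value of both in VAT 3. For red blood cells VAT 3 held 41.3, the highest of VAT, and for liver 273, the lowest; for white blood cells, skin and epithelia, and neurons it lay inside the range of the other VAT libraries (305 for skin and epithelia, VAT range 250 to 420). Few non-muscle reads were left in some IMAT libraries: in IMAT 4 the 4 muscle miRNAs held 257802 of 407941 reads. Low sums in such libraries rest on few reads. Several of these lists moved with the depots. No entry of the stroma, endothelium or blood cell lists was called by edgeR in any comparison, while entries of the other lists were. Some lists are thin: 2 entries were tested for red blood cells, 2 for white blood cells and 1 for endothelium. miR-451 of red blood cells, miR-223 of white blood cells and miR-124 of neurons have no entry. Liver miR-122 held 273 to 580 in VAT, 10.5 to 55.6 in SAT and 16 to 276 in IMAT; its log2 fold change against VAT was -2.67 in IMAT and -4.22 in SAT (edgeR adjusted p = 0.0087 and 0.0013). Skin and epithelia held 333 to 739 in SAT and 247 to 802 in IMAT. Of that list, miR-205b exceeded its VAT level by 3.16 in IMAT and 4.52 in SAT, miR-203a by 2.4 and 2.71 and miR-203b by 3.32 and 3.7 on the log2 scale (edgeR adjusted p = 0.0016 to 0.022), and miR-205a-3p was lower in IMAT than in SAT by -1.77 (adjusted p = 0.032). Those higher than in VAT are 4 of 11 tested entries, as miR-203a has 2, which carry the same reads. Of all tested entries, 7.65% were called higher than in VAT in IMAT and 7.34% in SAT. All others of the list were lower in IMAT than in VAT without a call, such as miR-200b (-1.49) and miR-205a-5p (-1.46). The list median was -0.975 for IMAT against VAT, beside -0.597 for all tested entries, and 0.369 for SAT against VAT, beside -0.0461. The neuronal sum was at least 153 in VAT and 35 to 112 in IMAT, with a median of 100 in SAT, and IMAT against VAT had a log2 fold change of -2.73 for miR-9a-3p and of -2.77 for miR-9b-3p (edgeR adjusted p = 0.0024 and 0.0063). Without VAT 3 these calls against VAT were kept except that of miR-203b between IMAT and VAT, at 3.31 (edgeR adjusted p = 0.05, not passed). The part of these cell types in the results for the muscle miRNAs was not tested. No miRNA is found in adipocytes alone. The 14 distinct miRNAs of a list described in fat cells (miR-103, miR-107, miR-143, miR-27, miR-30 and miR-204) were read in every depot, at 23368 to 59859 in VAT, 29012 to 40190 in SAT and 52855 to 76917 in IMAT. Calls on this fat cell list were made only against VAT. Of 17 tested entries, IMAT had 2 higher and 1 lower, and SAT had 2 higher and 0 lower. Of all tested entries, 7.65% were called higher and 5.81% lower in IMAT, and 7.34% higher and 5.2% lower in SAT. The counts on the list are near these shares and say nothing particular about it. For miR-204 the log2 fold changes were 4.36 (IMAT) and 5.78 (SAT), with edgeR adjusted p values of 0.00018 and 3.1e-05. miR-27c was the lower one, at -1.22 (0.022 in the same test), and miR-27b, also higher in both, is described below. The muscle marker list has the 4 miRNAs described here, miR-499a and miR-499b, all above 0 in every IMAT library. miR-208, also on that list, has no entry among the deposited counts. Whether muscle cells or their RNA entered the preparations was not tested. In such bulk samples, fewer cells of a type and less RNA per cell cannot be told apart.

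miR-1 (ssa-miR-1-3p), a miRNA of skeletal and heart muscle, was the most abundant in every IMAT library. Its level was 547441 RPM in IMAT 1, 600796 in IMAT 2, 561032 in IMAT 3, 419161 in IMAT 4 and 362103 in IMAT 5. In SAT 1 to SAT 5 it held 24579, 27161, 37522, 9848 and 16036, at ranks 10 to 15 of the library. In VAT the values were 873 in VAT 1, 15113 in VAT 3, 262 in VAT 4 and 370 in VAT 5, at rank 13 in VAT 3 and ranks 50 to 69 in the other libraries. The lowest IMAT library lay 9.65-fold above the highest SAT library and 24-fold above VAT 3. SAT and VAT overlapped, since VAT 3 lay above SAT 4. The median of miR-1 in IMAT was 22.3-fold that of SAT and 881-fold that of VAT, or 1479-fold without VAT 3.

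**Figure D1:**
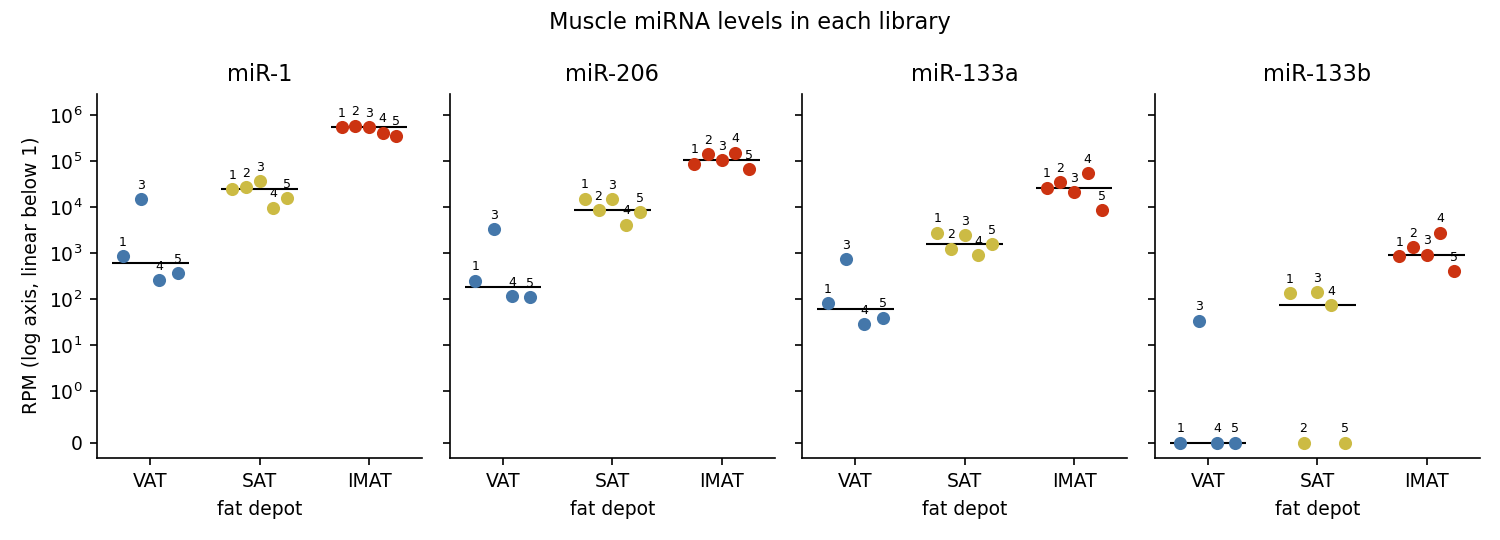
RPM of miR-1, miR-206, miR-133a and miR-133b (log axis, linear below 1) in each VAT, SAT and IMAT library; points are libraries with their replicate number and lines are depot medians. All 5 IMAT libraries lie above all SAT and VAT libraries for each miRNA, and VAT 3 lies above the other VAT libraries.

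miR-206 (ssa-miR-206-3p), of skeletal muscle, took rank 2 in 4 IMAT libraries and rank 4 in IMAT 5. It held 89298, 144563, 106274, 153802 and 68124 RPM in IMAT 1 to IMAT 5. In SAT 1 to SAT 5 it held 15416, 8645, 15045, 4184 and 7897. The VAT values were 258 in VAT 1, 3335 in VAT 3, 118 in VAT 4 and 113 in VAT 5. The depots did not overlap for miR-206: the lowest SAT library, SAT 4, lay 1.25-fold above VAT 3, and the lowest IMAT library 4.42-fold above the highest SAT library. Its IMAT median was 12.3-fold that of SAT and 566-fold that of VAT, or 901-fold without VAT 3.

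miR-133a (ssa-miR-133a-3p), the partner of miR-1 in its transcripts, held 26974, 35733, 21423, 56202 and 8663 RPM in IMAT 1 to IMAT 5. In SAT 1 to SAT 5 it held 2839, 1277, 2454, 924 and 1584. The VAT values were 81.9 in VAT 1, 743 in VAT 3, 28.8 in VAT 4 and 40.2 in VAT 5. The depots did not overlap here either, with SAT 4 lying 1.24-fold above VAT 3, and the IMAT median was 17-fold that of SAT and 442-fold that of VAT, or 671-fold without VAT 3. The SAT medians exceeded those of VAT 39.5-fold for miR-1, 46-fold for miR-206 and 25.9-fold for miR-133a; without VAT 3 these values were 66.4, 73.3 and 39.4. In RPM, miR-133a varied 6.49-fold between IMAT libraries, where miR-206 varied 2.26-fold and miR-1 1.66-fold. RPM limits the spread of a miRNA that fills much of a library. With the TMM scaling explained below, the CPM in IMAT ran from 267813 to 904946 for miR-1. It ran from 57682 to 217748 for miR-206 and from 7335 to 53823 for miR-133a. The order of the IMAT libraries also depended on the scale. In RPM, IMAT 4 was the highest for miR-133a, miR-133b and miR-206 but the second lowest for miR-1. IMAT 5 was the lowest for all 4 in RPM. In TMM-scaled CPM, IMAT 2 was the highest for all 4. There, IMAT 4 was the lowest for miR-1 (267813, beside 306603 in IMAT 5), and IMAT 5 for the others.

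miR-133b (ssa-miR-133b-3p), the partner of miR-206 in its transcript, was the least abundant. It held 876, 1359, 940, 2795 and 405 RPM in IMAT 1 to IMAT 5. SAT 1, SAT 3 and SAT 4 held 134.9, 143.9 and 73.8, and VAT 3 held 34.2. It was listed at 0 in SAT 2, SAT 5, VAT 1, VAT 4 and VAT 5, where 3 counts would correspond to 0.867, 0.831, 0.578, 0.488 and 0.277 RPM (counting error only). In the 9 libraries above 0, miR-133b had 3.25 to 7.98% of the reads of miR-133a: 3.25 to 4.97% in IMAT, 4.75, 5.86 and 7.98% in SAT 1, SAT 3 and SAT 4, and 4.61% in VAT 3. At the lowest of these ratios SAT 2 and SAT 5 would have held 143.3 and 185.7 miR-133b reads, and VAT 1, VAT 4 and VAT 5 13.8, 5.75 and 14.1. The zeros of SAT 2 and SAT 5 are thus far from the ratio of the other libraries, and the values of miR-133b in SAT and VAT were read with that limit.

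Summed, the 4 miRNAs took 66.5% of the miRNA reads in IMAT 1, 78.2% in IMAT 2, 69% in IMAT 3, 63.2% in IMAT 4 and 43.9% in IMAT 5. In SAT 1 to SAT 5 they took 4.3, 3.71, 5.52, 1.5 and 2.55%. In VAT the shares were 0.121% in VAT 1, 1.92% in VAT 3, 0.0409% in VAT 4 and 0.0523% in VAT 5. IMAT stood apart from both other depots, while VAT 3 lay above SAT 4. On the log2 scale, the share was 4.3 higher in IMAT than in SAT (exact permutation test, two-sided, p = 0.0079, or 0.012 after adjustment over the 3 comparisons) and higher than in VAT by 8.72 (exact p = 0.0079, adjusted p = 0.012). SAT was higher than VAT by 4.42 (exact p = 0.016, adjusted p = 0.016). The smallest p these designs allow is 0.0079. Without VAT 3 the differences from VAT were 9.95 for IMAT and 5.65 for SAT, and without VAT 4 they were 8.1 and 3.8. The difference between SAT and VAT missed the threshold without SAT 1, SAT 2, SAT 3 or SAT 5 (exact permutation test, adjusted p = 0.057 each). Its size was 4.23 to 4.5 in these cases. With a SAT library left out, the smallest p of the test is larger than 0.0079. Without SAT 4 the difference was 4.7 and the call was kept (exact permutation test, adjusted p = 0.029). Where the call was lost, SAT 4 was still among the libraries and lay below VAT 3. The losses are not read as a smaller difference. A share cannot exceed the whole, so differences in share understate differences in a miRNA that fills a library: for each read of another miRNA, IMAT had a median of 1.98 muscle miRNA reads (0.783 to 3.6), SAT 0.0385 (0.0153 to 0.0584) and VAT 0.000866 (0.000409 to 0.0196).

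**Figure D2:**
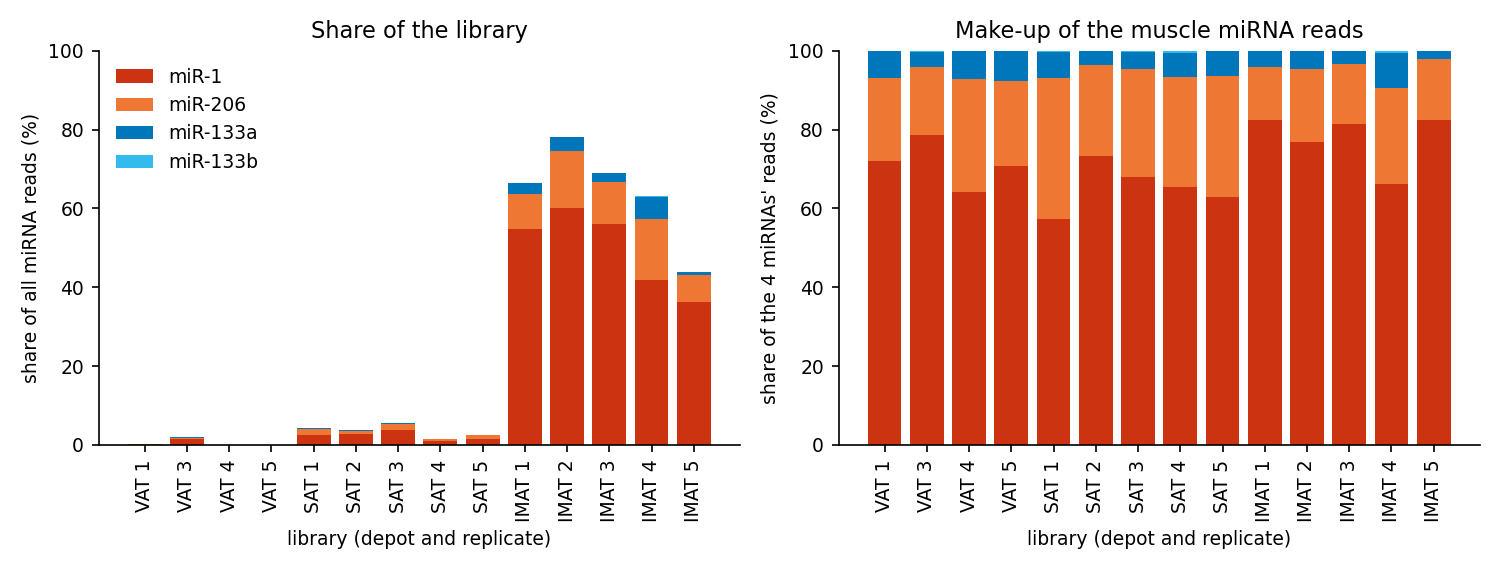
Left, the share of all miRNA reads (%) taken by miR-1, miR-206, miR-133a and miR-133b in each library; right, the make-up (%) of the summed reads of the 4. The share is 43.9 to 78.2% in IMAT, 1.5 to 5.52% in SAT and 0.0409 to 1.92% in VAT, while miR-1 leads the make-up in every library, from 57.2 to 82.4%.

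The depots were then compared across all entries with edgeR's quasi-likelihood test on the counts, to find entries that differ between their libraries. The 327 entries above 0 in 4 or more libraries were tested, and all 7 muscle entries were among them. Of these, 6 were above 0 in every library; miR-133b was above 0 in 9, and its 5 IMAT libraries alone would have passed it. A call is a Benjamini-Hochberg adjusted p under 0.05 over all entries tested, and log2 fold changes are of TMM-scaled counts with their standard error (SE). TMM is a scaling that takes most entries as unchanged; its factors were 0.301 to 0.841 in IMAT and 1.09 to 1.93 in the other libraries.

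IMAT was higher than VAT for 6 of the 7 entries, that is for miR-1, miR-133a and miR-206, while 7.65% of all tested entries were called higher and 5.81% lower. The log2 fold change was 7.91 ± 1.31 (SE) for miR-1, with a Benjamini-Hochberg adjusted p of 0.00086 in edgeR. For miR-133a it was 7.92 ± 1.12 (adjusted p = 0.00035) and for miR-206 7.81 ± 1.16 (adjusted p = 0.00051). miR-133b had 8.14 ± 2.63 and missed the threshold (adjusted p = 0.054), although all 5 IMAT libraries lay above all 4 VAT libraries. Its adjusted p over 25 alternatives ran from 0.0016 to 0.12. Without VAT 3 it passed, at 15.61 (edgeR adjusted p = 0.0082), with every remaining VAT library listed at 0. The other 3 kept the call in 25 of 25 alternatives. Without VAT 3 their values rose to 10.36, 9.55 and 9.83 in the order miR-1, miR-133a and miR-206. miR-1 had 7.24 without VAT 1 and 7.31 without VAT 5, and miR-206 had 7.22 without VAT 1. All 7 entries were without overlap between IMAT and VAT, where 9.48% of all tested entries were so and higher in IMAT.

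Against SAT, IMAT was again higher for the 6 entries of miR-1, miR-133a and miR-206, where 3.67% of all tested entries were called higher and 3.06% lower. The log2 fold change was 4.99 ± 1.03 for miR-1 (edgeR adjusted p = 0.0089), 4.58 ± 0.867 for miR-133a (adjusted p = 0.0089) and 4.02 ± 0.879 for miR-206 (adjusted p = 0.011). miR-133b, at 4.69 ± 2.02, did not pass (adjusted p = 0.15; 0.014 to 0.32 over the alternatives). All 3 calls were kept in 25 of 25 alternatives, with miR-133a at 5.26 without IMAT 5 and miR-206 at 4.62 without IMAT 1 and 4.64 without IMAT 5. Every IMAT library lay above every SAT library for all 7 entries, as for 4.89% of all tested entries.

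Between SAT and VAT the calls depended on single libraries, those of IMAT included, and on the scaling and the filter. With all libraries kept and median-ratio scaling, miR-206 had 3.08 (edgeR adjusted p = 0.057) and miR-133a 2.66 (edgeR adjusted p = 0.072). With TMM both passed. miR-206 was higher in SAT by 3.79 ± 0.955 (edgeR adjusted p = 0.021) and miR-133a by 3.34 ± 0.896 (adjusted p = 0.028), which are 3 of the 7 entries; 7.34% of all tested entries were called higher in SAT and 5.2% lower. miR-1 had 2.92 ± 1.03 (adjusted p = 0.082, unadjusted p = 0.013) and miR-133b 3.45 ± 2.1 (adjusted p = 0.38). Without VAT 3, miR-1 had 5.37 (adjusted p = 0.0011), miR-206 5.81 (adjusted p = 0.00057) and miR-133a 4.97 (adjusted p = 0.0013). There miR-133b passed as well, at 10.93 (edgeR adjusted p = 0.032), with every remaining VAT library listed at 0. Both calls were lost without VAT 1, VAT 4, VAT 5, IMAT 1, IMAT 2, IMAT 3 or IMAT 5 (edgeR adjusted p = 0.059 to 0.19), and that of miR-133a also without SAT 3 (0.063). With those 7 libraries left out in turn, miR-206 had 2.74 to 3.27, miR-133a 2.37 to 2.84 and miR-1 1.8 to 2.36, the lowest of each without VAT 1; without VAT 4, miR-1 had 1.96 (edgeR adjusted p = 0.23). The entries of miR-133a and miR-206 did not overlap between SAT and VAT and those of miR-1 and miR-133b did; 11.6% of all tested entries did not overlap and were higher in SAT.

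**Figure D3:**
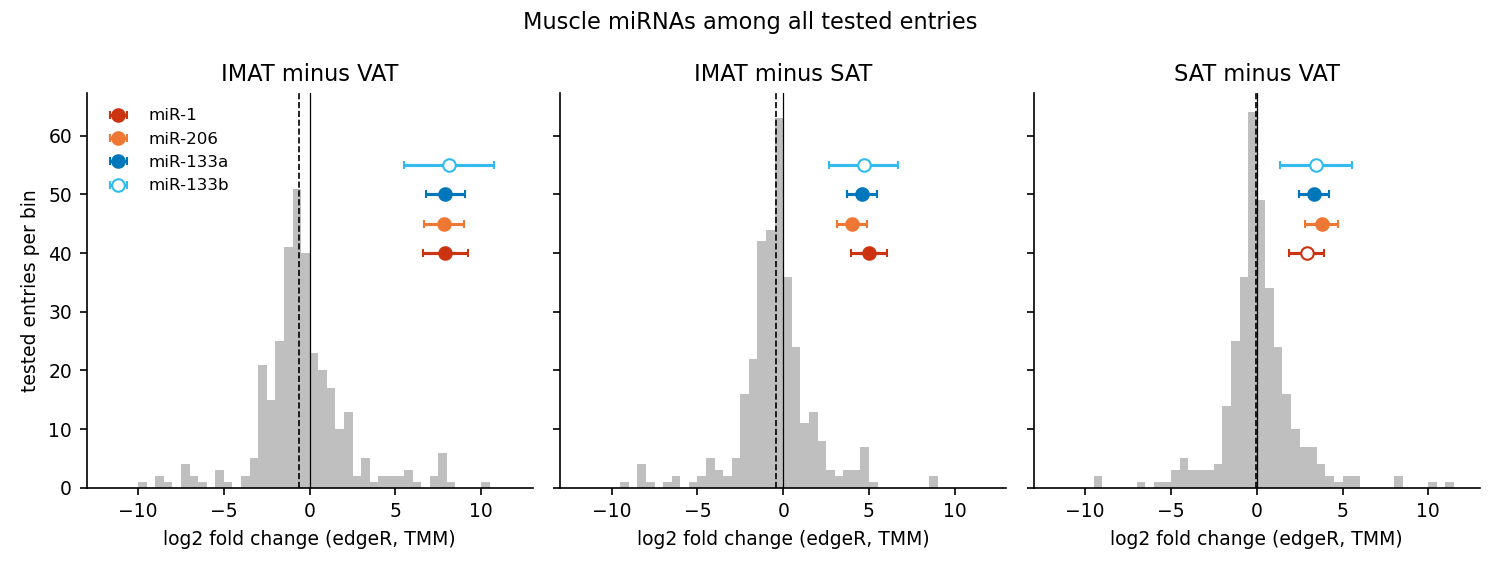
Histograms of the log2 fold changes (edgeR, TMM) of all 327 tested entries in each comparison, with miR-1, miR-206, miR-133a and miR-133b as points with SE bars at arbitrary heights (filled, adjusted p under 0.05); the dashed line is the median of all tested entries. In the IMAT comparisons the 4 miRNAs lie in the upper tail, from 7.81 to 8.14 against VAT and from 4.02 to 4.99 against SAT.

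In the IMAT comparisons the fold changes of miR-1, miR-133a and miR-206 moved with the scaling, and their calls were kept. The median log2 fold change of all tested entries between IMAT and VAT was -0.60 with TMM and -1.99 with library totals only. miR-1 had 7.91 and 5.96 under these scalings, which lies 8.5 and 7.95 above the respective median. For miR-206 the distance from the median was 8.41 and 7.94, and for miR-133a 8.51 and 8.11. Between IMAT and SAT the median moved from -0.43 to -1.81, and miR-1 lay 5.42 and 5.35 above it.

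**Figure D4:**
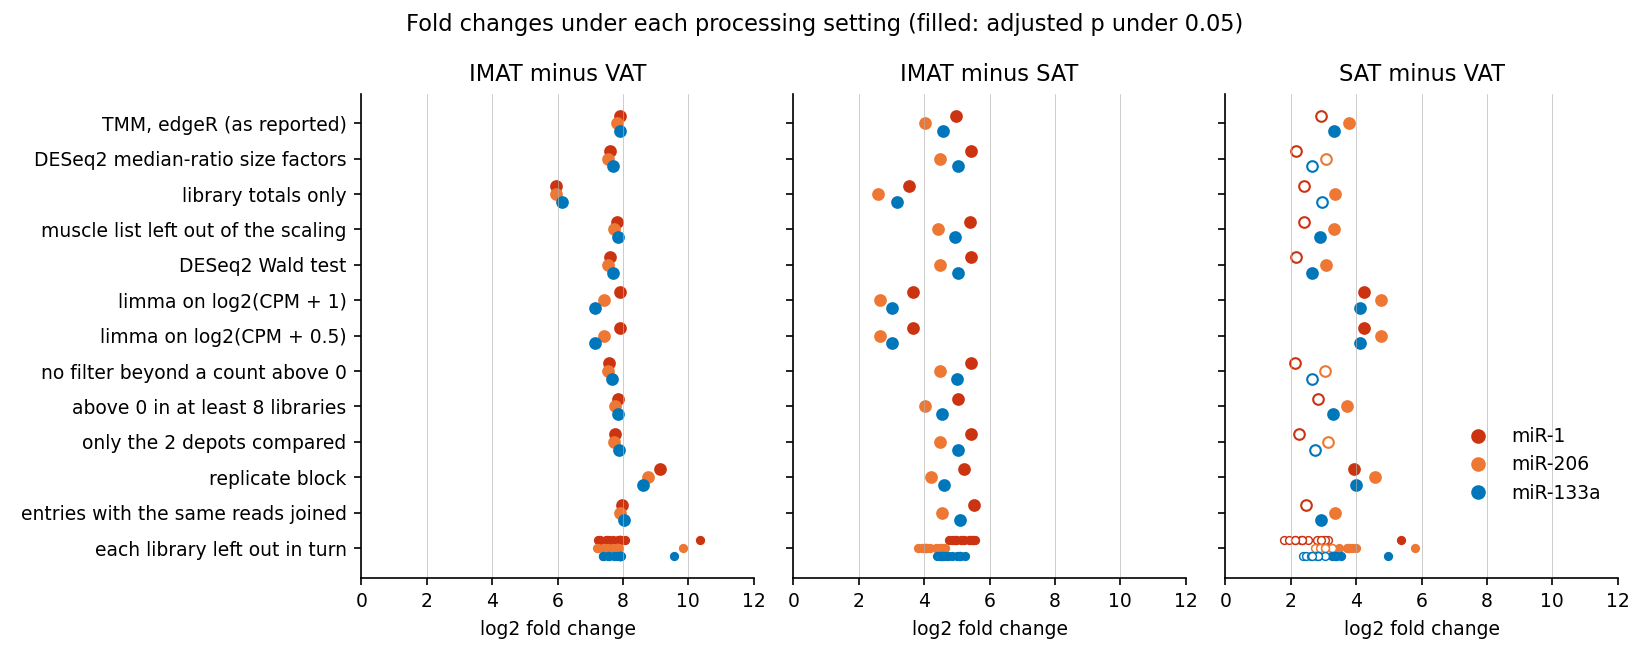
Log2 fold changes of miR-1, miR-206 and miR-133a in the 3 comparisons (horizontal axes) under each processing setting and with each library left out in turn; filled points passed an adjusted p of 0.05. All points are filled for IMAT against VAT (5.94 to 10.36) and IMAT against SAT (2.58 to 5.57), and filled and open points are mixed for SAT against VAT.

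Ratios of 2 miRNAs within a library need no scaling and were used to ask whether the mixture of muscle miRNAs differed between depots. The reads of miR-206 were 16.3 to 36.7% of those of miR-1 in IMAT (median 18.9%), 31.8 to 62.7% in SAT (median 42.5%) and 22.1 to 45% in VAT (median 30%). This ratio was lower in IMAT than in SAT by a log2 difference of -1.01, with IMAT 4 (36.7%) above SAT 2 (31.8%); the two-sided exact permutation test gave p = 0.016 and an adjusted p of 0.14 over the 9 ratio tests, which did not pass. IMAT and VAT differed by -0.48 (exact p = 0.15, adjusted p = 0.34) and SAT and VAT by 0.52 (exact p = 0.087, adjusted p = 0.26). miR-133a had 2.39 to 13.4% of the reads of miR-1 in IMAT (median 4.93%), 4.7 to 11.5% in SAT (9.38%) and 4.92 to 11% in VAT (10.1%). Its ratio spread 5.6-fold within IMAT, from IMAT 5 to IMAT 4, and the log2 differences of -0.75 from VAT and -0.64 from SAT did not pass (exact p = 0.21 and 0.24, adjusted p = 0.36 each). SAT and VAT differed by -0.11 in this ratio (exact p = 0.8, adjusted p = 0.83).

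**Figure D5:**
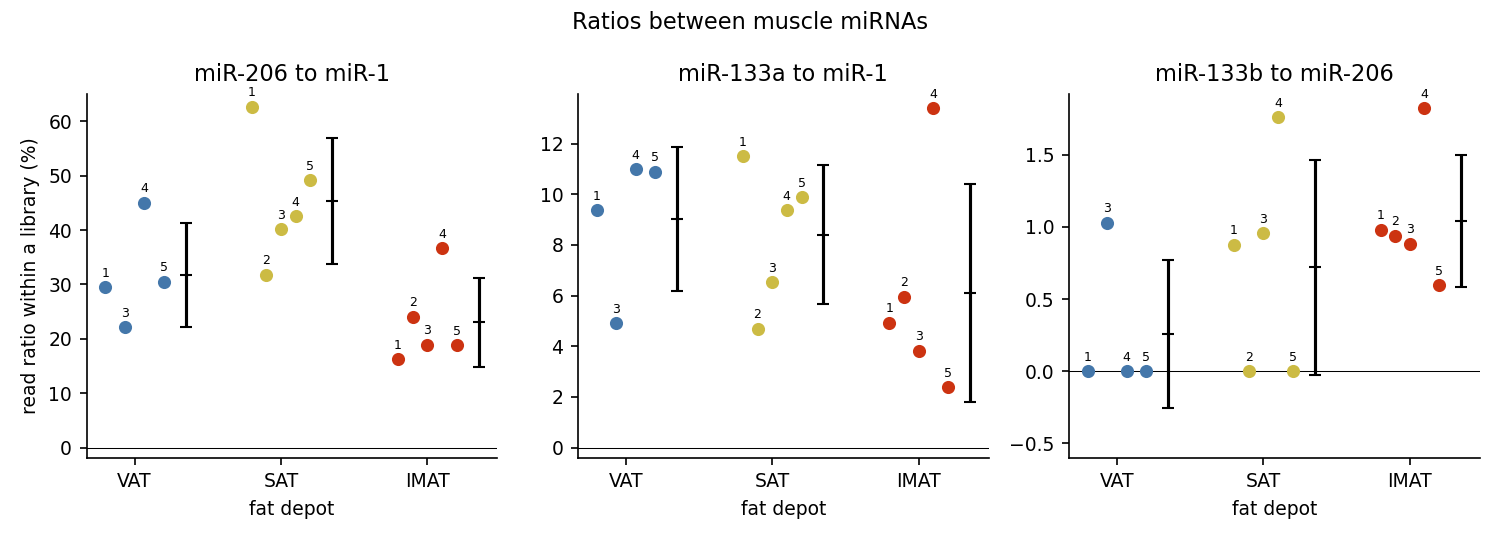
Read ratios (%) of miR-206 to miR-1, miR-133a to miR-1 and miR-133b to miR-206 within each library, by depot; points are libraries with their replicate number and bars are mean ± SD. The depots overlap in all 3 ratios, and IMAT 4 has the highest value of IMAT in each.

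miR-133b had 0.594 to 1.82% of the reads of miR-206 in IMAT (median 0.94%). In SAT 1, SAT 3 and SAT 4 the ratio was 0.875, 0.956 and 1.76%, and in VAT 3 1.03%; the remaining 5 libraries list miR-133b at 0. With 0.5 added to each count, the log2 ratio differed by 3.26 between IMAT and VAT (exact permutation p = 0.04, adjusted p = 0.18), by 3.53 from SAT to IMAT (exact p = 0.28, adjusted p = 0.36) and by -0.27 between SAT and VAT (exact p = 0.83, adjusted p = 0.83). These 3 differences rest on the libraries at 0. None of the 9 ratio tests passed in any of 16 alternatives, the one without VAT 3 included (exact permutation tests, adjusted p = 0.071 to 0.95). The smallest p of the exact permutation test here is 0.0079, so after adjustment over 9 tests a single differing ratio could not pass. The tests therefore cannot show that the ratios are alike. Of the summed reads of the 4 miRNAs, the share of miR-1 was 77.8 ± 6.85% in IMAT, 65.3 ± 5.95% in SAT and 71.4 ± 5.94% in VAT, and miR-206 17.4 ± 4.26, 29 ± 4.69 and 22.2 ± 4.8% (SD, n = 5, 5 and 4). The make-up varied far less between depots than the level did, and in VAT 3, where the level was highest of VAT, miR-1 held 78.6%.

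Entries with the most similar pattern were found as the smallest root mean square difference from the mean profile of the 4 miRNAs over the 14 libraries, on log2(TMM CPM + 1) after each profile was set to a mean of 0. The members themselves lay at 0.535 (miR-133a) to 1.54 (miR-133b), and the median of the 320 other tested entries was 4.1. The nearest 5 were the predicted NovelmiRNA-324 at 1.33, ssa-miR-26d-5p at 1.59, the predicted NovelmiRNA-91 at 1.7, ssa-miR-499a-5p at 1.71 and ssa-miR-499b-5p at 2. The 2 predicted entries carry the same reads in every library but 1, so they stand for 1 miRNA. The TMM-scaled CPM of NovelmiRNA-324 was 2.58 ± 3.97 in the VAT libraries, 44.4 ± 15.2 in SAT and 388 ± 179 in IMAT. miR-26d held 36.2 ± 25.5, 123 ± 55 and 2242 ± 1123 in the same order.

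Of the other muscle-specific miRNAs, miR-499a and miR-499b lie in myosin genes in mammals and favour slow muscle fibres in mice. miR-499a held 226 and 241 RPM in IMAT 4 and IMAT 5 and 164 to 345 in IMAT as a whole, 18 to 98.3 in SAT and 2.11 to 14.4 in VAT. miR-499b held 1057 to 1522 in IMAT 1 to IMAT 4 and 218 in IMAT 5, inside the SAT range of 158 to 384. Both entries were called in all 3 comparisons. The log2 fold change of miR-499a was 6.0 ± 0.769 for IMAT against VAT (edgeR adjusted p = 0.00018), 2.53 ± 0.592 for IMAT against SAT (adjusted p = 0.018) and 3.47 ± 0.677 for SAT against VAT (adjusted p = 0.0036). Without VAT 3 the values against VAT were 6.51 in IMAT and 3.98 in SAT for miR-499a and 5.3 and 2.82 for miR-499b, all still called (edgeR adjusted p = 0.00017 to 0.032). The median of the pair was 5.48 against VAT and 2.5 against SAT, beside 7.91 and 4.99 for miR-1; a difference between them was not tested.

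miRNAs that act on muscle cells without being restricted to them showed no rise of this size in their list medians. Of 21 tested entries on the list promoting muscle differentiation, 1 was called higher in IMAT than in VAT and 1 lower. Of all tested entries 7.65% were called higher and 5.81% lower, so these counts say nothing particular about the list. Its median was -0.74 beside -0.60 for all tested entries. Some entries of these lists carry the same reads, such as miR-214-5p and miR-214-3p, and were counted separately. miR-27b, which lowers Pax3 in mouse muscle stem cells, was higher by 1.65 ± 0.36 (edgeR adjusted p = 0.0063), and miR-29b-2-3p, of a family that promotes differentiation, was lower by -1.56 ± 0.417 (adjusted p = 0.022). In IMAT against SAT none was higher and miR-29b-2-3p was lower by -1.43 ± 0.4 (adjusted p = 0.048), with a list median of -1.11 beside -0.43. There, 3.67% of all tested entries were called higher and 3.06% lower. In SAT against VAT miR-27b was higher by 2.03 ± 0.366 (adjusted p = 0.0025), with a list median of 0.06 beside -0.05, where 7.34% of all tested entries were called higher and 5.2% lower. Of 11 tested entries on the list restraining differentiation, none was called between IMAT and VAT, with a median of -0.41 beside -0.60. miR-125b, which lowers IGF2 in mouse muscle cells, was lower in IMAT than in SAT by -1.96 ± 0.38 (adjusted p = 0.0089) and higher in SAT than in VAT by 1.53 ± 0.405 (adjusted p = 0.028); it was the only call of that list, whose medians were 0.46 and -0.71. Without VAT 3 the calls against VAT were kept for miR-27b (1.69 in IMAT and 2.08 in SAT) and miR-29b-2-3p (-1.65 in IMAT). That of miR-125b in SAT against VAT, at 1.52, was lost (edgeR adjusted p = 0.053). The call of miR-29b-2-3p between IMAT and SAT was lost as well, at -1.43 (edgeR adjusted p = 0.057), as all depots share 1 fit.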

How the data were processed

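Whole-number read counts per miRNA entry were deposited for 14 libraries, unscaled by the authors. A second column per library, headed TPM, equals the count per 1000000 summed counts within 0.005 when the first entry is left out of the sum, so the deposited values are CPM; they were used for this check only. Per the submitters' processing notes, Trimmomatic 0.30 and edgeR 3.4.6 were used, in steps that are not described; the sources used here name no aligner, caller or build. There were 2 columns of per-sample values that match no label, and they were not used. Groups follow the depot that each title names. A pair of entries was read as carrying the same reads when at least 4 libraries held both, with 20 reads or more in 1 of them, and no such library differed by over 2 reads or 10%, whichever was larger (52 sets, 121 entries); a set was counted once, at its highest entry. The deposited counts were tested with edgeR 4.0.16 (R 4.3.3, quasi-likelihood, TMM, all depots in 1 fit, no block, two-sided), after a test on simulated data. Shares and ratios used exact permutation tests on log2 values. Alternatives used DESeq2 1.42.0, limma 3.58.1, other scalings and filters, and each library left out. All 4 miRNAs are named, with the 5 nearest profiles and up to 4 called entries per list. Members and lists were chosen with earlier results of these data known. Intervals and floors cover counting error only, since PCR reads are not independent molecules.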

Additional observations from a re-analysis of the deposited data

Results flagged for a closer look

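In VAT, 1 library lay far from the other 3 for every one of the muscle miRNAs. VAT 3 held 15113 RPM of miR-1, where the next VAT library held 873, 3335 of miR-206 (next 258), 743 of miR-133a (next 81.9) and 34.2 of miR-133b (next 0). Its summed share was 1.92% (next 0.121%), and its ratio of miR-133b to miR-206 was 1.03%, where the other 3 list miR-133b at 0. In each case the gap to the next library was over 0.829 of the range of the depot. Of 24 groups of values examined, 6 had such a gap, all of them in VAT 3. They share a library and are not independent. Chance gives about 1 in 20 only for normally distributed values. The values here were not on a log scale, and their distribution was not tested. For miR-133b and its ratio to miR-206, any value above 0 in VAT 3 would have given such a gap. The number of gaps was therefore not set against chance.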

How the results depend on the processing

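For IMAT against VAT and IMAT against SAT, the calls of miR-1, miR-133a and miR-206 were kept in all 25 alternatives. For SAT against VAT, 3 entries were called, and the number was 0 with median-ratio scaling, without a filter or in a fit of only these 2 depots, 1 with library totals only, and 6 in limma with a pseudocount of 1 or 0.5. With a replicate block it was 6; numbers were not shown to pair the samples, as the deviations of 13 same-numbered pairs had a median correlation of -0.013 (3 over 0.1) and a library was nearest to its own number in 4 of 26 cases. Leaving out each library gave 0 to 7 entries. The share difference between SAT and VAT was 3.8 to 5.65 with each library left out. It lost its call without SAT 1, SAT 2, SAT 3 or SAT 5, where it was 4.23 to 4.5. Between SAT and VAT, the log2 ratio of miR-133a to miR-1 ran from -0.38 to 0.086 and that of miR-133b to miR-206 from -1.37 to 1.15, so their signs are not settled. The cause was not tested. The other share and ratio results kept their direction and their side of the threshold, which a single differing ratio could not have passed. Where miR-133b is listed at 0, counting error at that depth would allow up to 0.277 to 0.867 RPM. The zeros of SAT 2 and SAT 5 lie far from the ratio to miR-133a of the other libraries, so these limits may not bound the true level.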
